A study of Mus musculus with 12 samples.

Results

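Complement C1q, ApoE and macrophage genes were followed through RNA-seq of CD8+ T cells sorted from mouse tumours, as 9 genes out of the 56941 in the count table. The genes were picked by symbol from a fixed set of names: C1qa, C1qb, C1qc, Apoe, Lyz2, Tgm2, Csf1r, Adgre1 and Fcgr3. These names were put together because the genes were high in asGM1-positive libraries of these same data, so the values between the populations are given as a description and carry no test. All 9 genes passed the filter on low counts, which 18657 genes passed.

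The tumours were Panc02, a mouse pancreatic tumour line, and the mice were wild type C57BL/6J. Viable (DAPI-), CD45.2+ and CD8+ cells were split by asGM1 (asialo-GM1, a glycolipid of the cell surface) into a positive and a negative population, and the tumours had been treated with an anti-PD-1 antibody or an isotype ctrl antibody. The 4 groups were asGM1-positive cells under anti-PD-1, asGM1-negative cells under anti-PD-1, asGM1-positive cells under isotype and asGM1-negative cells under isotype, with 3 libraries each. The labels name CD8 as the only T cell gate, and do not say whether replicates came from separate mice, and each p-value therefore rests on variation among libraries that could be technical in part.

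C1q is the recognition part of the classical complement pathway, built from A, B and C chains that C1qa, C1qb and C1qc encode side by side. Tissue macrophages are the main source of C1q, and tumour-associated macrophages that make C1q often also make ApoE, a lipid carrier. Lyz2 encodes lysozyme, Csf1r the receptor for the macrophage growth factor CSF1, Adgre1 the F4/80 antigen, Fcgr3 an activating IgG receptor and Tgm2 a transglutaminase that takes part in the clearance of dying cells. T cells are not known as a main source of any of these products.

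Sequence upstream of the C1q and ApoE genes is shown because values of the C1q genes are set beside those of Apoe in the results that follow. RefSeq promoters of build GRCm38.p6 held entries for 5 of the 9 genes: C1qb, C1qc, Apoe, Lyz2 and Fcgr3. Capitals mark GAGGAA or its reverse complement TTCCTC, a core that PU.1, a myeloid transcription factor, can bind. All 3 sequences lie on the minus strand and read towards the gene: chr4:136886201-136886450 for C1qb, chr4:136893066-136893164 for C1qc and chr7:19699189-19699438 for the most upstream Apoe start.
C1qb: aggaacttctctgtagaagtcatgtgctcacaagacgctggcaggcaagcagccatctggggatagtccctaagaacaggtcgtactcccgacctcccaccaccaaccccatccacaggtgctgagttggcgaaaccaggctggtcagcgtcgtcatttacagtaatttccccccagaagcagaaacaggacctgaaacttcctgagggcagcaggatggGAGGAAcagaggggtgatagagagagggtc
C1qc: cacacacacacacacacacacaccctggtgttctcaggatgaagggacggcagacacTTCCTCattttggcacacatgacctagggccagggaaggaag
Apoe: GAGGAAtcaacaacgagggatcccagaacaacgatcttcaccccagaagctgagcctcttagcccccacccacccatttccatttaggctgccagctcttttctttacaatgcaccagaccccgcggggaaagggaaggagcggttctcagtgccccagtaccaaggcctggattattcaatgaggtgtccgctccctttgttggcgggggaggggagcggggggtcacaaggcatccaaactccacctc
Each of these windows held 1 match, which began 30 bases before the start of C1qb, 193 before that of C1qc and 250 before that of Apoe. Of the windows not printed, that of Lyz2 and that of the next Apoe start (chr7:19698622-19698871) held 0. The window of the Apoe start furthest downstream and those of Fcgr3 held 1 each. The C1qc stretch is the 99 bases of its window outside annotated exons. Of 32851 RefSeq windows of 250 bases, 23.3% held GAGGAA on either strand, so a match is common. The windows say nothing about binding in these cells.

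Library totals ran from 58.1 to 73.2 M counts (M stands for mega), so that 3 counts, the limit that a count of 0 allows, were 0.041 to 0.0516 CPM (a gene's counts as a share of its library, scaled so that a library sums to 1 M). The 9 genes were a small part of the RNA. Their summed level was 167, 216 and 305 CPM in asGM1-positive cells and 54.4, 63.4 and 93.9 CPM in asGM1-negative cells under anti-PD-1, and 217, 300 and 317 CPM against 57.8, 58 and 65.6 CPM under isotype. The sums did not overlap between populations under either treatment, and overlapped between treatments within each population. A list of 12 CD8 T cell markers summed to 11200 to 14400 CPM over the 12 libraries. In bulk RNA, a different number of cells of a type and a different amount of RNA per cell cannot be told apart.

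The C1q chains were present in every library. C1qa had 7.71, 7.91 and 11.8 CPM in asGM1-positive cells and 1.95, 3.08 and 3.35 CPM in asGM1-negative cells under anti-PD-1, and 19.8, 22.9 and 15.2 CPM against 4.70, 5.03 and 4.23 CPM under isotype (replicates 1, 2 and 3). The isotype asGM1-positive libraries were the highest, all 3 anti-PD-1 asGM1-positive libraries came next, and no group overlapped another.

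C1qb had 19.2, 19.3 and 30.0 CPM in asGM1-positive cells and 4.49, 5.69 and 8.02 CPM in asGM1-negative cells under anti-PD-1, and 41.4, 43.3 and 26.5 CPM against 5.89, 7.81 and 9.60 CPM under isotype. The populations were apart under both treatments. Between treatments the asGM1-positive groups met, since replicate 3 was the highest library under anti-PD-1 and the lowest under isotype.

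C1qc had 10.8, 11.8 and 19.6 CPM in asGM1-positive cells and 3.68, 2.67 and 4.39 CPM in asGM1-negative cells under anti-PD-1, and 24.5, 27.2 and 19.4 CPM against 4.72, 4.89 and 5.84 CPM under isotype. The same replicate 3 libraries brought the asGM1-positive groups together, while the asGM1-negative libraries under anti-PD-1 all lay below those under isotype.

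Apoe behaved otherwise between treatments. It had 54.5, 82.7 and 102 CPM in asGM1-positive cells and 20.6, 23.4 and 31.2 CPM in asGM1-negative cells under anti-PD-1, and 80.5, 95.7 and 65.2 CPM against 14.1, 13.5 and 17.5 CPM under isotype. The asGM1-positive groups overlapped across treatments. In asGM1-negative cells all 3 anti-PD-1 libraries lay above all 3 isotype libraries.

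Lyz2 had 45.2, 59.3 and 99.1 CPM in asGM1-positive cells and 14.3, 15.6 and 31.6 CPM in asGM1-negative cells under anti-PD-1, and 90.8, 64.9 and 48.7 CPM against 17.0, 14.7 and 15.01 CPM under isotype. The populations did not overlap, and the treatments did.

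Tgm2 had 13.9, 14.9 and 11.1 CPM in asGM1-positive cells and 3.35, 5.94 and 4.87 CPM in asGM1-negative cells under anti-PD-1, and 33.9, 15.5 and 14.3 CPM against 4.08, 3.61 and 5.01 CPM under isotype. Replicate 1 of isotype asGM1-positive cells stood above all other libraries.

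The remaining genes encode surface receptors. Csf1r had 8.32, 8.37 and 11.5 CPM in asGM1-positive cells and 1.19, 1.16 and 3.41 CPM in asGM1-negative cells under anti-PD-1, and 11.3, 12.9 and 14.8 CPM against 1.11, 3.07 and 3.93 CPM under isotype. Replicate 3 was the highest library in all 4 groups.

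Adgre1 had 1.81, 2.25 and 3.38 CPM in asGM1-positive cells and 0.99, 0.71 and 1.51 CPM in asGM1-negative cells under anti-PD-1, and 3.72, 4.19 and 2.87 CPM against 1.04, 0.63 and 1.02 CPM under isotype. The populations stayed apart, with less distance between them under anti-PD-1.

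Fcgr3 had 5.58, 8.96 and 17.1 CPM in asGM1-positive cells and 3.87, 5.23 and 5.57 CPM in asGM1-negative cells under anti-PD-1, and 11.2, 13.7 and 9.84 CPM against 5.15, 4.80 and 3.45 CPM under isotype. Under anti-PD-1 the lowest asGM1-positive and the highest asGM1-negative library nearly met.

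**Figure D1:**
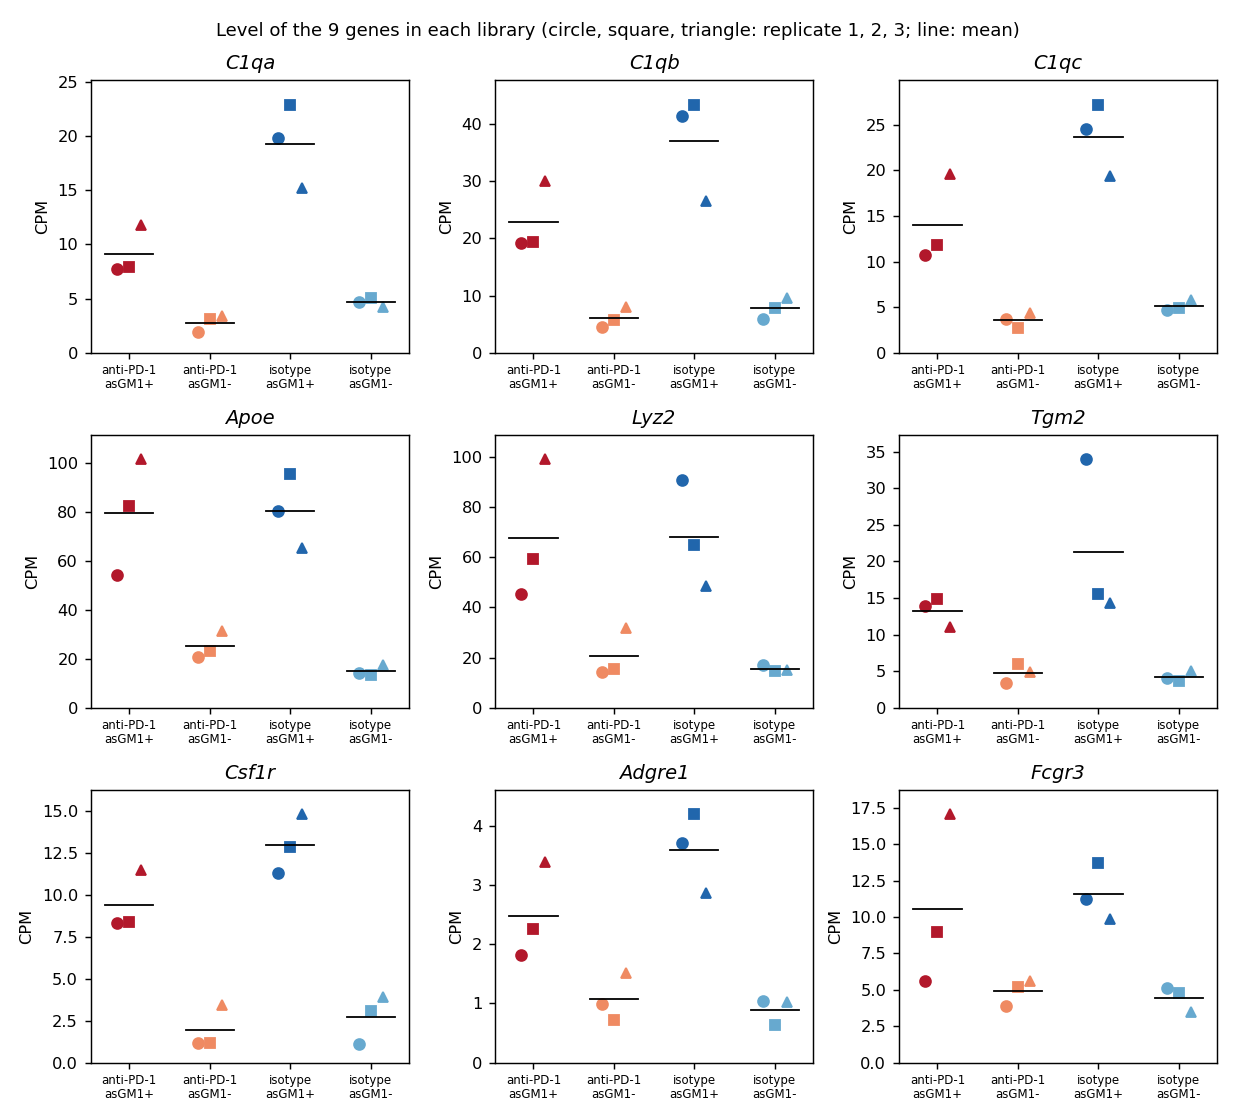
Level of each gene in CPM (y axis, linear, from 0) in each library, with anti-PD-1 groups left of isotype groups and asGM1-positive left of asGM1-negative; symbols are replicates 1 to 3 and lines are group means. Each gene is higher in asGM1-positive than in asGM1-negative libraries under both treatments, and in the C1qa panel the isotype asGM1-positive points, from 15.2 to 22.9, lie above the anti-PD-1 ones, from 7.71 to 11.8.

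Levels of different genes were ranked only per kilobase of exon, with all annotated exon bases of a gene as its length. The order depends on these lengths, and which transcripts were expressed was not determined. In asGM1-positive cells Lyz2 averaged 51.6 ± 21.2 CPM per kb under anti-PD-1 and 51.8 ± 16.1 under isotype (SD, n = 3 each), Apoe 37.2 ± 11.1 and 37.6 ± 7.14, and C1qb 21.0 ± 5.70 and 34.1 ± 8.49. C1qa followed with 8.78 ± 2.20 CPM per kb under anti-PD-1 and 18.6 ± 3.73 under isotype, and C1qc with 7.27 ± 2.49 and 12.3 ± 2.06. Fcgr3, Tgm2, Csf1r and Adgre1 came after these in that order in asGM1-positive cells under both treatments. Adgre1, the lowest, averaged 0.767 ± 0.250 CPM per kb under anti-PD-1 and 1.11 ± 0.207 under isotype. Under both treatments the spreads (mean ± SD) of Lyz2 and Apoe met, as did those of Apoe and C1qb and those of Fcgr3 and Tgm2. Those of C1qa, C1qc and Fcgr3 met under anti-PD-1 alone, and those of Tgm2 and Csf1r under isotype alone. In asGM1-negative cells Lyz2 also led, with 15.6 ± 7.34 CPM per kb under anti-PD-1 and 11.8 ± 0.965 under isotype. Apoe came next under anti-PD-1 with 11.7 ± 2.58, above C1qb with 5.57 ± 1.65, while under isotype Apoe with 7.04 ± 1.01 and C1qb with 7.14 ± 1.71 were level.

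The asGM1-positive library exceeded its asGM1-negative partner, the library with the same treatment and replicate number, in 6 of 6 pairs for each of the 9 genes. The fold within a pair ran from 2.57 to 4.55 for C1qa, from 2.75 to 7.03 for C1qb, from 2.92 to 5.57 for C1qc and from 2.65 to 7.08 for Apoe. It ran from 3.37 to 10.2 for Csf1r, the widest upper end, and from 1.44 to 3.06 for Fcgr3, the lowest of the 9. Lyz2 (3.13 to 5.33), Tgm2 (2.27 to 8.31) and Adgre1 (1.83 to 6.69) lay between.

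As fitted log2 fold changes of asGM1-positive over asGM1-negative cells, the C1q chains stood at 1.71 ± 0.25, 1.91 ± 0.28 and 1.97 ± 0.26 for C1qa, C1qb and C1qc under anti-PD-1, and at 2.05 ± 0.25, 2.25 ± 0.29 and 2.20 ± 0.26 under isotype (± standard error). Apoe stood at 1.67 ± 0.23 under anti-PD-1 and 2.42 ± 0.24 under isotype. The median over the 9 genes was 1.71 under anti-PD-1 and 2.20 under isotype, beside medians over all genes tested of -0.01 and -0.00084. At an adjusted p of 0.05, edgeR's quasi-likelihood test would call 7 of the 9 higher under anti-PD-1 and 8 under isotype, where 0.949% and 0.364% of all genes were called higher and 0.654% and 0.938% lower. Since the genes were chosen on this difference, these counts are not evidence for it. With each pair as a block, the counts were 8 and 9. The populations did not overlap for any of the 9 genes, and 10.2% of all genes lay higher without overlap under anti-PD-1 and 7.94% under isotype. Without both anti-PD-1 replicate 2 libraries, whose heat shock gene Hspa1a reached 146 and 151 CPM (22.5 to 32.6 CPM elsewhere under anti-PD-1), 0 of the 9 and 17 genes in all passed under anti-PD-1.

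Between treatments, the question was whether PD-1 blockade changed these genes within a sorted population. The genes were chosen for high levels in asGM1-positive libraries, and the same libraries enter this comparison. They were also chosen with earlier results of these data known. The treatment p-values are therefore not independent of the choice of genes. In asGM1-positive cells C1qa fell under anti-PD-1. The log2 fold change of anti-PD-1 over isotype was -1.08 ± 0.24 (edgeR quasi-likelihood test, adjusted p = 0.0196 over all genes tested, 3 libraries each), a level of 0.473 times that under isotype. C1qc stood at -0.75 ± 0.25 (edgeR adjusted p = 0.0959) and C1qb at -0.70 ± 0.27 (edgeR adjusted p = 0.161), and these did not pass. Apoe stood at -0.01 ± 0.23 and Lyz2 at -0.01 ± 0.34, so that differences in either direction within that error were not resolved.

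Of the 9 genes, 1 was called lower and 0 higher in asGM1-positive cells by this test, against 3.04% of all genes called lower and 3.78% higher. At an unadjusted p of 0.05, 3 of the 9 would pass, namely the C1q genes. DESeq2 and limma voom each called 2, and both of these added C1qc to C1qa. Tgm2 stood at -0.68 ± 0.32, Adgre1 at -0.53 ± 0.34, Csf1r at -0.47 ± 0.45 and Fcgr3 at -0.14 ± 0.34, with edgeR adjusted p from 0.249 to 0.879. The C1qa libraries did not overlap between treatments, as was so for 12.2% of all genes in the lower direction. The C1qa call ended, with adjusted p from 0.056 to 0.114, when isotype asGM1-positive replicate 1 or 2, anti-PD-1 asGM1-positive replicate 1 or 2, or both anti-PD-1 replicate 2 libraries were left out.

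In asGM1-negative cells none of the 9 passed the edgeR test, beside 4.21% of all genes called higher and 4.55% lower. At an unadjusted p of 0.05, 2 would pass, C1qa and Apoe, and they stood on opposite sides of 0. C1qa had a log2 fold change of -0.73 ± 0.24 (edgeR adjusted p = 0.0867) and Apoe one of 0.74 ± 0.23 (edgeR adjusted p = 0.0722). DESeq2 called both and limma voom neither. C1qc stood at -0.52 ± 0.25 and C1qb at -0.36 ± 0.28. Without overlap between treatments, C1qa and C1qc lay lower and Apoe higher, beside 15.8% of all genes lower and 14.5% higher. Lyz2, Tgm2, Adgre1 and Fcgr3 stood between 0.13 and 0.40, and Csf1r at -0.49 ± 0.46.

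Averaged over both populations, a contrast added after the values were seen, C1qa stood at -0.91 ± 0.17 (edgeR adjusted p = 0.00358), C1qc at -0.64 ± 0.18 (edgeR adjusted p = 0.0262), C1qb at -0.53 ± 0.19 (edgeR adjusted p = 0.0823) and Apoe at 0.36 ± 0.16 (edgeR adjusted p = 0.15). This contrast called 18.3% of all genes, 9.1% in the lower direction. It counts the 2 libraries of a pair as independent, although they deviated together, so its errors and p-values are too small. With the mean log2 CPM of each pair as 1 sample, 3 pairs against 3 in limma, also added after the values were seen, C1qa stood at -0.92 ± 0.21 (limma adjusted p = 0.0327) and C1qc at -0.67 ± 0.19 (limma adjusted p = 0.0751), so the C1qc call ended. C1qb stood there at -0.53 ± 0.19 (limma adjusted p = 0.134) and Apoe at 0.34 ± 0.17 (limma adjusted p = 0.274), where 4.38% of all genes were called higher and 4.17% lower.

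Levels of the heat shock gene Hspa1a stood apart between the treatments. In asGM1-positive cells it stood at 32.6, 146 and 22.5 CPM under anti-PD-1 against 343, 440 and 427 CPM under isotype, and in asGM1-negative cells at 32.2, 151 and 30.9 CPM under anti-PD-1 against 188, 355 and 245 CPM under isotype. All 6 isotype libraries lay above all 6 anti-PD-1 libraries, though the edgeR adjusted p of Hspa1a was 0.094 in asGM1-positive and 0.188 in asGM1-negative cells. Its part in the treatment values of the 9 genes was not tested.

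**Figure D2:**
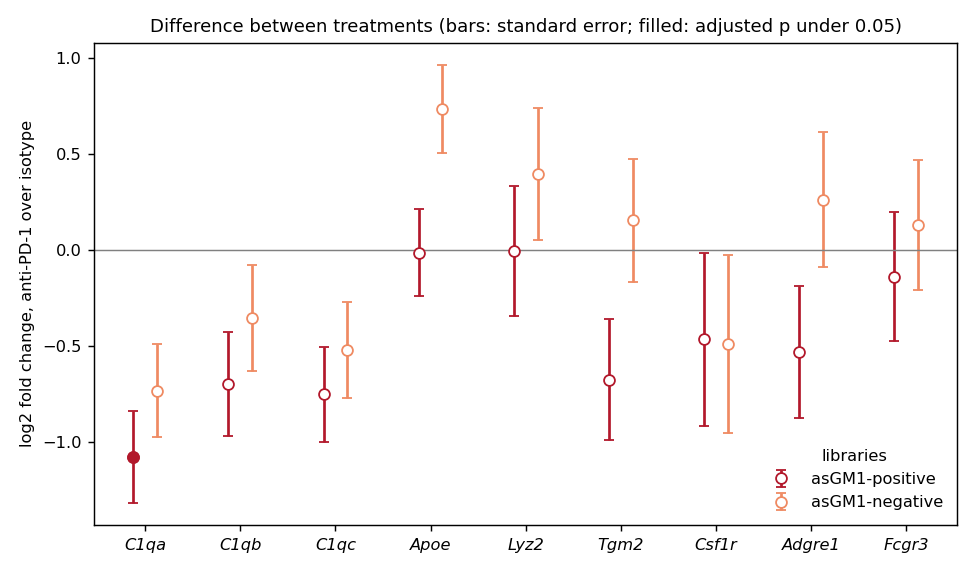
Fitted log2 fold change of anti-PD-1 over isotype (y axis) for each gene, in asGM1-positive cells (dark) left of asGM1-negative cells (light), with standard errors as bars and filled points for an adjusted p under 0.05. The C1q genes lie below 0 in both populations, from -1.08 to -0.36, C1qa in asGM1-positive cells is the one filled point, and Apoe lies at -0.01 and 0.74.

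Ratios of counts within a library do not depend on how much of the 9 genes' RNA a library holds. They were chosen after the values were seen and are given without a test. The 3 C1q genes together had 0.690, 0.472 and 0.603 times the counts of Apoe in asGM1-positive cells under anti-PD-1, against 1.07, 0.977 and 0.936 times under isotype. In asGM1-negative cells the ratio was 0.491, 0.490 and 0.505 under anti-PD-1 and 1.09, 1.31 and 1.12 under isotype. The treatments did not overlap in either population, and all 6 anti-PD-1 libraries lay below all 6 isotype libraries. In asGM1-negative cells Apoe itself was higher under anti-PD-1 without overlap, which lowers any ratio to it there. How often ratios of other genes part the treatments in this way was not tested.

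Each chain gave the same order. C1qa over Apoe ran from 0.0957 to 0.141 under anti-PD-1 and from 0.233 to 0.246 under isotype in asGM1-positive cells, and from 0.0947 to 0.132 and from 0.241 to 0.372 in asGM1-negative cells. C1qc over Apoe ran from 0.143 to 0.197 under anti-PD-1 and from 0.284 to 0.304 under isotype in asGM1-positive cells. Lyz2 over Apoe overlapped between treatments in both populations, with 0.717 to 0.975 under anti-PD-1 and 0.678 to 1.13 under isotype in asGM1-positive cells. Csf1r and Fcgr3 over Apoe also overlapped in both. Adgre1 over Apoe was lower under anti-PD-1 without overlap in asGM1-positive cells alone, at 0.0272 to 0.0333 against 0.0438 to 0.0462. Tgm2 over Apoe was so in asGM1-negative cells alone, at 0.156 to 0.254 against 0.267 to 0.29. A lower ratio to Apoe was thus not particular to the C1q genes.

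The C1q chains also shifted against each other in asGM1-positive cells. C1qb over C1qa ran from 2.44 to 2.55 under anti-PD-1 and from 1.74 to 2.09 under isotype, without overlap. In asGM1-negative cells the same ratio ran from 1.85 to 2.39 and from 1.25 to 2.27, with overlap. Between populations, Fcgr3 over Apoe was lower in asGM1-positive than in asGM1-negative cells without overlap, at 0.102 to 0.168 against 0.178 to 0.224 under anti-PD-1 and 0.139 to 0.151 against 0.197 to 0.365 under isotype. The C1q genes together, C1qc and Adgre1 over Apoe were also lower in asGM1-positive cells without overlap under isotype, and overlapped under anti-PD-1. C1qb over C1qa was higher in asGM1-positive cells without overlap under anti-PD-1, and overlapped under isotype. Csf1r, Tgm2, Lyz2, C1qa and C1qb over Apoe overlapped between the populations under both treatments.

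**Figure D3:**
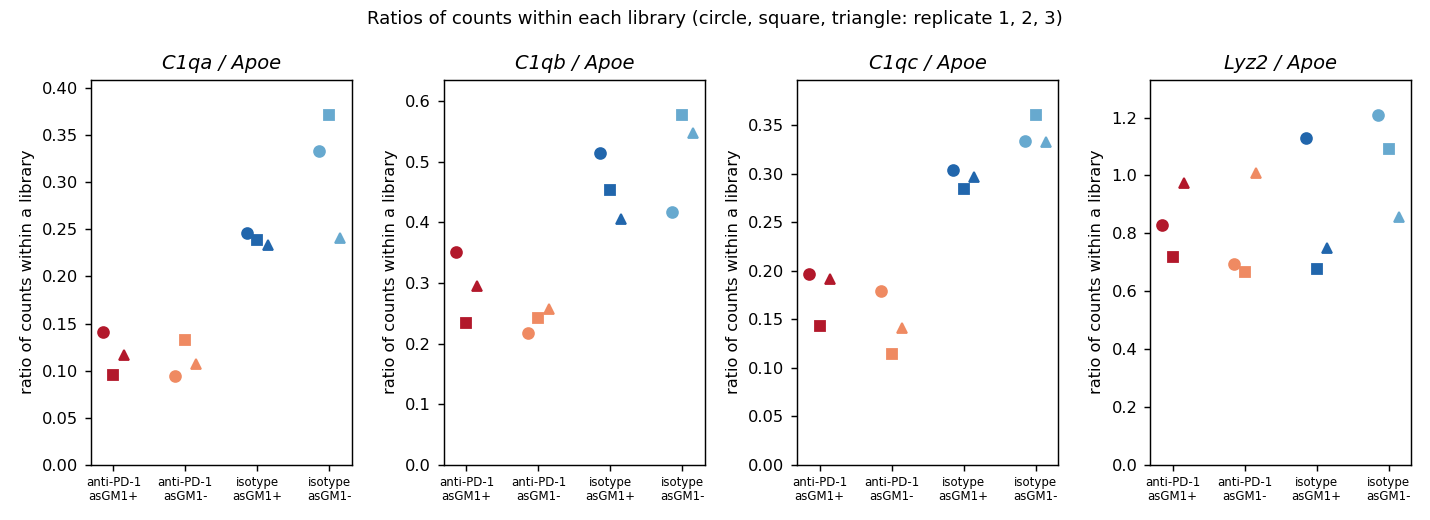
Ratio of counts of C1qa, C1qb, C1qc and Lyz2 to counts of Apoe within each library (y axis, linear, from 0), with anti-PD-1 groups left of isotype groups; symbols are replicates 1 to 3. For each C1q chain the anti-PD-1 libraries lie below the isotype libraries of the same population, while Lyz2 over Apoe overlaps in both.

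Whether the effect of treatment differed between the populations was tested as an interaction. None of the 9 genes passed (edgeR adjusted p 0.668 to 1), nor did any of the 18657 genes tested, so percent called was 0. At an unadjusted p of 0.05, 7.19% of all genes and 1 of the 9 would pass, Apoe at -0.75 ± 0.32, and DESeq2 and limma voom called 0 of the 9. With the pairs as a block, Apoe stood at -0.76 with an edgeR adjusted p of 0.204, and 13 of all genes passed. The treatment effect of C1qa in asGM1-positive cells was therefore not shown to differ from that in asGM1-negative cells (interaction -0.35 ± 0.34).

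Within groups, all of the 9 genes but Tgm2 had positive correlations with one another, some of them weak. As a description over 12 libraries, each library's log2 CPM was set against its group mean and Pearson's r of these deviations was taken. The 2 libraries of a pair deviated together over all genes, so the 12 are not independent points. C1qa and C1qb had r = 0.77, C1qb and C1qc 0.76, C1qb and Apoe 0.82, Apoe and Lyz2 0.78, and C1qc and Adgre1 0.86. Csf1r varied, with r = 0.083 with Fcgr3, 0.28 with C1qa and 0.31 with Adgre1, up to 0.67 with C1qb. Tgm2 had r from -0.15 to 0.30 with the other 8. With the mean deviation of the 3 C1q genes, Apoe had r = 0.87, Lyz2 0.84, Adgre1 0.71, Fcgr3 0.70, Csf1r 0.56 and Tgm2 0.13.

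**Figure D4:**
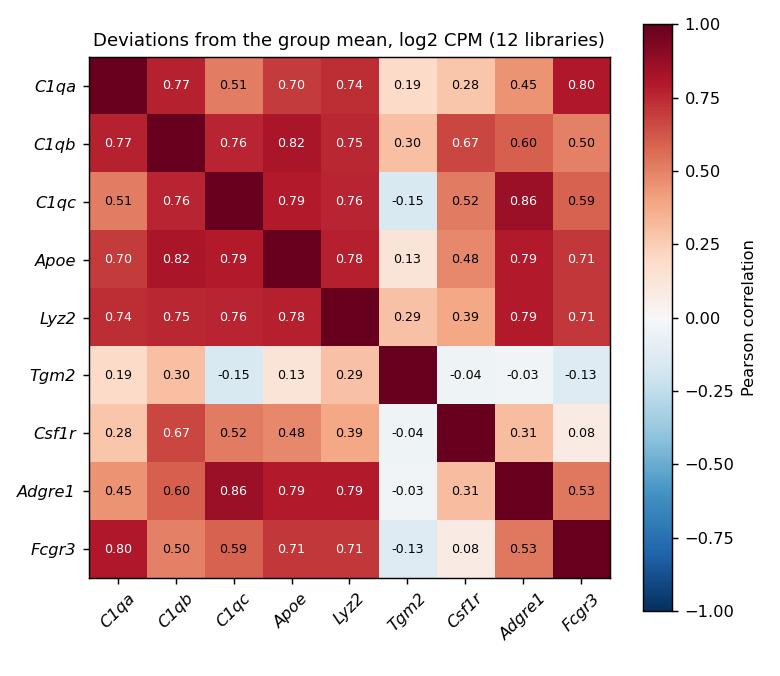
Pearson correlation, from -1 (blue) to 1 (red), between pairs of the 9 genes over the deviations of 12 libraries from their group means in log2 CPM. C1qa, C1qb, C1qc, Apoe, Lyz2 and Adgre1 form a red block with values from 0.45 to 0.86, and the Tgm2 row stays between -0.15 and 0.30.

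By the same measure, over the 10425 other genes whose log2 CPM averaged 2 or more, the genes most like the C1q mean were Skic8 (r = 0.926), Cdk10 (0.92), AI662270 (0.915), Gm15542 (0.91) and Yeats4 (0.91), then Synj2bp, Pdcd4, Mocs1, Igflr1 and Socs5 down to 0.873. None of these 10 was in any of the gene lists. Without the anti-PD-1 replicate 2 libraries, 6 of the 10 stayed among the first 10. Apoe and Lyz2 lay above the 99th percentile of those genes, which was 0.77. The 10 macrophage markers outside the 9 genes that were abundant enough had a median r of 0.31, and none lay above that percentile.

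Other macrophage markers followed the 9 genes in part. Of 32 listed, 27 were tested, Marco and Vsig4 had no count in any library, and the list summed to 438 to 510 CPM in asGM1-positive and 434 to 472 CPM in asGM1-negative cells under anti-PD-1, and to 756 to 1010 against 509 to 745 CPM under isotype. Under anti-PD-1, 4 were higher in asGM1-positive cells and 0 lower, with a median log2 fold change of 1.0. Under isotype, 4 were higher and 1 lower, with a median of 1.16. With the pairs as a block, 7 and 11 passed, and without the anti-PD-1 replicate 2 libraries 0 passed under anti-PD-1.

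The scavenger receptor Msr1 rose in both. It had 1.64, 1.99 and 2.32 CPM in asGM1-positive cells and 0.168, 0.238 and 0.291 CPM in asGM1-negative cells under anti-PD-1 (lowest to highest), and 2.04, 2.08 and 4.59 against 0.347, 0.586 and 0.745 CPM under isotype. Its log2 fold change was 3.08 ± 0.44 under anti-PD-1 (edgeR adjusted p = 0.00832) and 2.37 ± 0.41 under isotype (edgeR adjusted p = 0.0173), and the groups did not overlap.

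Aif1, which encodes the macrophage protein IBA1, stood at 1.42 ± 0.29 under anti-PD-1 (edgeR adjusted p = 0.0348) and rose under isotype too, as did Ms4a7 by 2.24 ± 0.41 and Cd14 by 1.16 ± 0.24. Under anti-PD-1 the C3a receptor gene C3ar1 rose by 2.41 ± 0.46. Of 20 alternative settings, the call of Msr1 was lost in 1 under anti-PD-1, without the replicate 2 libraries, and in 4 under isotype, including when replicate 1 or 2 of the isotype asGM1-negative group was left out, or replicate 1 of the asGM1-positive one. The call of Aif1 was lost in 8 under anti-PD-1 and 12 under isotype. Under anti-PD-1 that of C3ar1 was lost in 6, and under isotype those of Ms4a7 and Cd14 in 6 and 15. The 20 settings include leaving out libraries outside the contrast, so a low count of losses is weak evidence of stability.

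Several macrophage markers did not follow. Cybb, a subunit of the phagocyte oxidase, fell in asGM1-positive cells under isotype, with 2.79, 3.6 and 4.84 CPM against 13.9, 20.0 and 28.6 CPM in asGM1-negative cells (log2 fold change -2.47 ± 0.31, edgeR adjusted p = 0.00384, lost in 0 of 20 alternatives). Cd68, a lysosomal glycoprotein used as a macrophage marker, had 26.6 to 29 CPM in asGM1-positive and 27 to 29 CPM in asGM1-negative cells under anti-PD-1, and 15.2 to 21.4 against 20.2 to 29.1 CPM under isotype, so its populations overlapped under both.

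**Figure D5:**
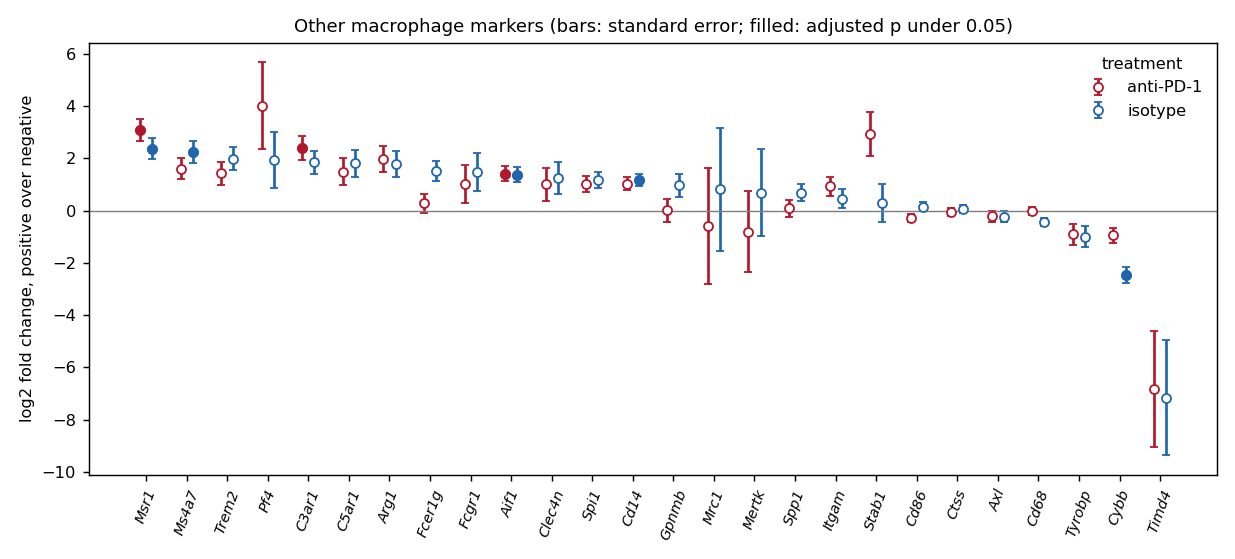
Fitted log2 fold change of asGM1-positive over asGM1-negative cells (y axis) for the other macrophage markers tested, 1 of the 27 left out, with anti-PD-1 (red) left of isotype (blue), standard errors as bars and filled points for an adjusted p under 0.05. Genes run from Msr1 at 3.08 and 2.37 down to Timd4, and Cd68, Ctss, Axl and Cd86 sit near 0.

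Of 31 listed complement genes other than C1q, 24 were tested. Under anti-PD-1 1 was called higher, C3ar1, with a list median of 0.35. Under isotype 0 were called in either direction by edgeR, with a median of 1.05, while 13 had an unadjusted p under 0.05, 11 of them higher. DESeq2 called 8 there, limma voom 1 and the paired fit 3. C3ar1, at 1.85 ± 0.44 (edgeR adjusted p = 0.074), Cfb, a protease of the alternative pathway, at 2.53 ± 0.65, and C5ar1, the C5a receptor gene, at 1.81 ± 0.52 had the smallest p-values there apart from Clu. Between treatments C1qbp, which encodes a mitochondrial protein named for binding C1q, fell in asGM1-negative cells by 0.71 ± 0.11 on the log2 scale (edgeR adjusted p = 0.00241), with 43.3, 46.4 and 48.5 CPM under anti-PD-1 and 68.1, 77.1 and 80 CPM under isotype. Calr, the calreticulin gene, fell there by 0.58 ± 0.09 (edgeR adjusted p = 0.00311).

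Some genes of ApoE receptors, lipid export and lipoproteins passed the test between treatments. Plin2, a coat protein of lipid droplets, rose by 1.39 ± 0.13 (edgeR adjusted p = 0.000101) in asGM1-positive cells and by 2.20 ± 0.13 (edgeR adjusted p = 1.66e-05) in asGM1-negative cells. The cholesterol exporter Abcg1 rose by 0.57 ± 0.14 and 0.94 ± 0.14, and Abca1, which loads lipid onto ApoE, rose by 2.31 ± 0.45 in asGM1-negative cells. Of 21 listed genes tested (Apob and Apoc1 had no count in any library), 2 rose and 2 fell in asGM1-positive cells with a median of 0.08, and 4 rose and 1 fell in asGM1-negative cells with a median of 0.05. None of the asGM1-negative calls of Plin2, Abcg1 and Abca1 was lost in 20 alternative settings, nor was the asGM1-positive call of Plin2, and the asGM1-positive call of Abcg1 was lost in 6.

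Between populations the same list held Pltp, the phospholipid transfer protein gene, which was lower in asGM1-positive cells, by a log2 fold change of -2.17 ± 0.27 under anti-PD-1 (edgeR adjusted p = 0.00482) and -1.83 ± 0.27 under isotype (edgeR adjusted p = 0.0074). Abca1 was lower by -2.18 ± 0.45 and Mylip by -0.79 ± 0.17 under anti-PD-1. With these, 0 rose and 3 fell under anti-PD-1 (median -0.02), and 0 rose and 1 fell under isotype (median 0.09), and the paired fit called 5 and 4. By edgeR without the pairs as a block, no other member of that list was called higher with Apoe between populations. At an unadjusted p of 0.05, 1 would pass as higher and 4 as lower under anti-PD-1. Under isotype 4 would pass as higher and 2 as lower, so a rise of other list members was not excluded.

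Among 13 tested Fc receptors and partners, Fcgr4, another activating IgG receptor, rose in asGM1-positive cells by 1.80 ± 0.34 under anti-PD-1 (edgeR adjusted p = 0.0259) and 1.97 ± 0.35 under isotype (edgeR adjusted p = 0.0179). It had 3.01, 3.34 and 5.37 CPM against 0.953, 1.01 and 1.39 CPM under anti-PD-1, and 2.44, 4.21 and 4.23 against 0.664, 0.887 and 1.24 CPM under isotype. The kinase gene Syk fell under isotype by 2.44 ± 0.40 on the log2 scale. Those were the calls of the list, at 1 under anti-PD-1 and 2 under isotype, with medians of 0.01 and 0.14, and the paired fit called 1 and 4. Fcer1g, the shared signalling chain of Fc receptors, fell with treatment by 2.62 ± 0.38 in asGM1-positive cells (edgeR adjusted p = 0.00188), with 27.2, 42.8 and 54.2 CPM under anti-PD-1 and 213, 251 and 302 CPM under isotype.

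Around the CSF1 receptor, 16 related receptors, ligands and myeloid factors were tested. Under anti-PD-1, 1 rose in asGM1-positive cells and 3 fell (Csf2rb2, Flt3 and Kit), and under isotype 0 rose and 4 fell (the same 3 and Csf2rb), with medians of -0.03 and 0.07. The paired fit called 7 and 6. Csf2rb2, a beta chain of the IL-3 receptor, stood at -3.03 ± 0.50 under anti-PD-1 and -3.32 ± 0.50 under isotype. Of the 16, 8 had a positive log2 fold change under each treatment.

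Of 19 tested lysosomal genes, 0 rose and 2 fell in asGM1-positive cells under anti-PD-1 (Ctsl and Grn), and 2 rose (Ctsd and Lgmn) and 2 fell (Ctsl and Ctsh) under isotype, with medians of -0.07 and 0.08, and the paired fit called 4 and 6. The protease gene Ctsl stood at -2.52 ± 0.37 under anti-PD-1 and -2.42 ± 0.37 under isotype. With treatment, 1 rose and 4 fell in asGM1-positive cells (median -0.29), and 5 rose and 0 fell in asGM1-negative cells (median 0.07). Of 18 tested genes of transglutaminases and the uptake of dying cells, the list that Tgm2 belongs with, 0 rose and 1 fell in asGM1-positive cells under anti-PD-1 (Havcr1), and 1 rose (Itgb5) and 2 fell (Havcr1 and Itgb3) under isotype, with medians of 0.01 and 0.20. With treatment the integrin gene Itgb3 rose by 2.77 ± 0.18 (edgeR adjusted p = 1.54e-05) in asGM1-positive cells and 2.16 ± 0.18 (edgeR adjusted p = 0.000127) in asGM1-negative cells.

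Markers of other cells moved with the populations as well. All 9 plasmacytoid dendritic cell markers were lower in asGM1-positive cells and 7 passed under anti-PD-1, where their sum was 143 to 168 against 222 to 264 CPM, and 9 passed under isotype, with 81.9 to 99.9 against 255 to 328 CPM. In asGM1-positive cells these sums were mostly Runx2, which averaged 141 CPM under anti-PD-1 and 79.6 CPM under isotype. The list's median log2 fold change was -7.75 under anti-PD-1 and -6.72 under isotype. Siglech reached at most 0.489 CPM in asGM1-positive cells and had at least 25.1 CPM in asGM1-negative cells. None of 10 conventional dendritic cell markers rose, while 3 fell under anti-PD-1 (sum 13.2 to 47.3 against 28.1 to 54.1 CPM) and 2 fell under isotype (13.7 to 17.4 against 41.4 to 51.5 CPM). None of the 10 monocyte markers passed edgeR under either treatment (unadjusted p under 0.05 in 0 under anti-PD-1 and 2 under isotype, DESeq2 calls 0 and 1), with sums of 430 to 537 against 454 to 561 CPM under anti-PD-1 and 177 to 229 against 187 to 254 CPM under isotype. Under isotype these sums were mostly Plac8 and Ccr2, which averaged 86.8 and 72.9 CPM in asGM1-positive cells. In asGM1-negative cells Plac8 and Ccr2 averaged 125 and 84.3 CPM under isotype. The monocyte sums do not measure monocyte content. Fibroblast markers summed to 0.662 to 1.37 against 0.42 to 0.903 CPM under anti-PD-1 and 3.13 to 24.3 against 0.858 to 2.34 CPM under isotype, and 0 of 6 tested passed edgeR or DESeq2 (unadjusted p under 0.05 in 0 under anti-PD-1 and 2 under isotype). Of the MHC class II genes, 1 of 10 fell under anti-PD-1 and 2 under isotype, and of the mast cell and basophil markers 1 of 6 fell under each. Among B cell markers 0 of 3 passed under anti-PD-1 and 1 fell under isotype, and no marker of NK cells, neutrophils, endothelium, epithelium or the erythroid and platelet lines passed edgeR under either.

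With treatment, in asGM1-positive cells, the monocyte gene Fn1 fell by 3.77 ± 0.66 on the log2 scale (edgeR adjusted p = 0.00568), with 1.08, 2.09 and 2.64 CPM under anti-PD-1 and 12.2, 16.5 and 50.4 CPM under isotype, and Plac8 rose by 2.06 ± 0.27. The macrophage list had 2 genes higher there (Itgam and Cd68) and 2 lower (Fcer1g and Spp1), with a median of -0.28, and in asGM1-negative cells 1 higher (Itgam) and 2 lower (Fcer1g and Stab1), with a median of -0.25. Of 5 neutrophil markers tested, none had a positive log2 fold change in either population. In asGM1-positive cells 1 fell, S100a9 by 3.27 ± 0.78 (edgeR adjusted p = 0.0271), with a list sum of 1.71 to 4.68 CPM under anti-PD-1 and 5.04 to 12.2 CPM under isotype. In asGM1-negative cells S100a9 fell by 4.51 ± 0.86 (edgeR adjusted p = 0.0082) and Csf3r by 2.41 ± 0.56 (edgeR adjusted p = 0.0204), with a list sum of 1.18 to 1.74 CPM under anti-PD-1 and 4.44 to 8.42 CPM under isotype. None of 6 fibroblast markers passed edgeR in asGM1-positive cells (unadjusted p under 0.05 in 2, DESeq2 calls 2), where the median was -3.30 and the sum 0.662 to 1.37 CPM under anti-PD-1 and 3.13 to 24.3 CPM under isotype. None passed in asGM1-negative cells either (unadjusted p under 0.05 in 0, DESeq2 calls 0), with 0.42 to 0.903 CPM under anti-PD-1 and 0.858 to 2.34 CPM under isotype. Of 5 epithelial and tumour cell markers Cdh1 fell, by 2.48 ± 0.21 (edgeR adjusted p = 4.8e-05) in asGM1-positive and 1.54 ± 0.20 (edgeR adjusted p = 0.0011) in asGM1-negative cells. The list sum was 17.9 to 28 CPM under anti-PD-1 and 91.3 to 112 CPM under isotype in asGM1-positive cells, and 26.3 to 32.7 CPM under anti-PD-1 and 62.5 to 90.2 CPM under isotype in asGM1-negative cells. Under isotype Cdh1 alone averaged 92.9 CPM in asGM1-positive and 68.1 CPM in asGM1-negative cells. The isotype sums were thus mostly Cdh1 and do not measure epithelial or tumour cell content. The part of these markers in the treatment values of the 9 genes was not tested. The asGM1-positive call of S100a9 was lost in 6 of 20 alternative settings, and the asGM1-negative calls of S100a9 and Csf3r in 0 and 6.

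None of the 12 CD8 T cell markers passed between populations, by edgeR, DESeq2 or an unadjusted p of 0.05, and with treatment Cd8a and Cd3g fell in asGM1-positive cells. Between populations, of 20 alternative settings, the calls of Pltp, Ctsl and Havcr1 were lost in 1 each under anti-PD-1 and in 0, 1 and 0 under isotype, and those of Fcgr4 in 6 and 5. Under anti-PD-1 the calls of Abca1, Mylip, Grn, Csf2rb2, Flt3 and Kit were lost in 7, 9, 5, 3, 9 and 10. Under isotype those of Syk, Csf2rb2, Kit, Csf2rb, Flt3, Itgb3, Itgb5, Ctsd, Lgmn and Ctsh were lost in 2, 0, 3, 4, 11, 3, 8, 6, 11 and 6. With treatment in asGM1-positive cells, the calls of Fcer1g, Fn1, Plac8 and Itgb3 were lost in 0, and those of Itgam, Spp1, Cd68, Pltp, Cd8a and Cd3g in 2, 5, 7, 5, 2 and 6. In asGM1-negative cells those of Itgb3, C1qbp and Calr were lost in 0, and those of Fcer1g, Itgam and Stab1 in 7, 12 and 14.

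The part of these other markers in the values of the 9 genes was not tested.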

How the data were processed

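RNA from 12 libraries in 4 groups was sequenced; the labels' protocols name TRIzol, TruSeq mRNA and SMARTer (for very little RNA) reagents. Per the submitters' processing notes, the tools were HISAT2 and StringTie and the build mm39; versions, settings, annotation and use of strand are not given in the sources used here. Whole-number counts per gene, as deposited, were used unchanged. How reads shared by near-identical copies were assigned is not stated, so Csf1r, which has a pseudogene, is uncertain to that extent. Totals of 58.1 to 73.2 M counts set the precision; floors reflect counting error alone, as reads copied by PCR are not separate molecules.

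Counts were fitted with edgeR 4.0.16 (R 4.3.3): TMM scaling, filterByExpr by group, 4 group means over all 12 libraries, a robust quasi-likelihood F test and Benjamini-Hochberg adjustment over 18657 genes, called at 0.05. The fit was tested on simulated data, as was limma on the mean log2 CPM (prior count 2) of each pair. The simulated libraries were drawn independently, so errors where the libraries of a pair deviate together were not checked. Same-numbered asGM1-positive and asGM1-negative libraries of a treatment deviated together (r 0.33 to 0.71 in 6 pairs), so the numbers were taken as pairs; across treatments they did not (-0.37 to 0.14). Alternatives were DESeq2 1.42.0 and its size factors, limma 3.58.1 voom, no filter, only the libraries compared, replicate blocks and leaving out libraries. Exon lengths came from GENCODE annotation of GRCm38, promoter sequences from RefSeq. The 9 genes and all gene lists were chosen with earlier results of these data known. Text names, per list and contrast, up to 4 genes of smallest p, the 10 genes most like C1q, and fixed controls. Ctss, Axl, Cd86, Timd4, Cd3g, Runx2, Ccr2, Aif1 under isotype, and Cd68 and Plac8 between populations were added after their values were seen. Results of a few named items are not reported here.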

Additional observations from a re-analysis of the deposited data

How the results depend on the processing

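All 180 population values of the 9 genes under alternatives kept their sign under anti-PD-1 and likewise under isotype. With treatment, leaving aside the average with each pair as 1 sample, the sign changed in 10 of 180 values in asGM1-positive and 8 of 180 in asGM1-negative cells, and in 9 of 171 for the interaction, each for a gene that passed in neither setting. The number of the 9 genes called lower or higher with treatment in asGM1-positive cells was 1 and became 2 with DESeq2, 2 with limma voom, 2 averaged over populations (added after seeing the data) and 0 without the anti-PD-1 replicate 2 libraries; in asGM1-negative cells it was 0 and became 2 with DESeq2, 1 with only the libraries compared and 2 averaged. With each pair as 1 sample (added after seeing the data), 1 of the 9 passed when averaged. Between populations, 0 in place of 7 passed under anti-PD-1 without those replicate 2 libraries, and 5 in place of 8 under isotype with only the libraries compared. Leaving out each library gave 0 to 2 of the 9 with treatment in asGM1-positive and 0 to 1 in asGM1-negative cells, 3 to 7 between populations under anti-PD-1, 5 to 8 under isotype, and 0 to 0 for the interaction. Over all genes, DESeq2 called 2264 with treatment in asGM1-positive cells (1274 by edgeR) and 2756 in asGM1-negative cells (1633), and 853 (299) and 798 (243) between populations under anti-PD-1 and isotype; the averaged contrast, whose p-values are too small because the 2 libraries of a pair deviated together, called 3417, and the average with each pair as 1 sample 1596. With only the libraries compared, 694 were called with treatment in asGM1-positive cells and 80 between populations under isotype. Without the anti-PD-1 replicate 2 libraries, 616, 813 and, between populations under anti-PD-1, 17 were called. With the replicate block by pair, 929 were called between populations under anti-PD-1, 755 under isotype and 13 for the interaction, where DESeq2 called 136; at an unadjusted p of 0.05, edgeR gave 1341. Leaving out each library gave 683 to 1276 with treatment in asGM1-positive and 778 to 1782 in asGM1-negative cells, 65 to 379 between populations under anti-PD-1 and 86 to 230 under isotype, and 0 to 0 for the interaction. A replicate block by number alone, which puts same-numbered libraries of both treatments in 1 block although these did not deviate together, gave 1381, 1768, 374, 254 and 0 in that order. The cause of these shifts was not tested. Apart from the calls given beside the results, the block by pair changed none for the 9 genes, other than Fcgr3 in both treatments. Depth was alike across libraries, and the spread between replicates (coefficient of variation 0.336) with 8 residual degrees of freedom set the limit: differences under the errors given could not be resolved.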
